A study of Mus musculus with 7 samples.

Results

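The genes described here are 10 genes of antigen presentation, chosen by name: Cd74, Ciita, H2-Aa, H2-Ab1 and H2-DMa of the MHC class II pathway, and B2m, Tap1, Psmb8, Psmb9 and Nlrc5 of the class I pathway. Of these, 9 had a probe set annotated to them alone, among 22180 genes with such a probe set. Cd74, the invariant chain that guards the class II groove, had 0 such probe sets and 1 that is also annotated to another gene, so no value is given for it. Expression was measured in gastric corpus, the acid-secreting part of the stomach, on 7 single-channel arrays. All mice were Atp4b-DTR transgenics aged 8 to 12 weeks, whose diphtheria toxin receptor transgene, under the Atp4b promoter, is active in parietal cells, the acid-secreting cells of the gland. They received saline (1 control array) or 225 ng of diphtheria toxin per mouse by intraperitoneal injection on each of 3 days, with tissue taken 24 h (1 array), 36 h (1), 48 h (2) or 72 h (2) after the last dose. The labels name neither strain nor sex nor any pooling of animals, and they mark the 72 h arrays A and B without saying what the letters stand for. So p-values measure only the spread between these arrays, which may be technical.

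MHC class I molecules show peptides from inside the cell to CD8+ T cells. The peptides are cut by the proteasome, which can exchange its catalytic subunits for the immunoproteasome subunits Psmb8, Psmb9 and Psmb10, and are pumped into the endoplasmic reticulum by the transporter made of Tap1 and Tap2. MHC class II molecules show peptides from endocytosed material to CD4+ T cells and are made mainly by dendritic cells, macrophages and B cells, and in the gut also by epithelial cells exposed to interferon gamma. The class I and class II programmes have separate transactivators, Nlrc5 and Ciita.

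The class I processing genes Tap1, Psmb9 and Psmb8 were higher on each of the 6 toxin arrays than on the control array. The differences were up to 1.94-fold at 24 h, 1.17-fold to 1.64-fold at 36 h and 1.26-fold to 1.65-fold at 48 h and 72 h. B2m, the light chain of class I molecules, and the class II chains H2-Aa and H2-Ab1 lay within 0.35 log2 units of the control level on all 6 toxin arrays. Psmb8 also lay within that bound at 36 h (0.23 above) and on both 72 h arrays (0.33 above). H2-Aa came near the bound from below at 24 h (-0.34). None of the 9 genes passed an adjusted p of 0.05 in any comparison, and neither did any other of the 22180 genes (0%; limma, Benjamini-Hochberg). At an unadjusted limma p under 0.05, 3 of the 9 were higher at 48 h, against 8.16% of all genes, and the same 3 were higher at 72 h, against 7.93%. In all, 5 of 9 lay above the control on all 6 toxin arrays, as did 20.2% of all genes, and 1 lay below it on all 6, as did 22.6%. The genes and the lists below were chosen with earlier results of these data known. Shares set beside those of all genes are therefore descriptions and not independent tests.

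**Figure D1:**
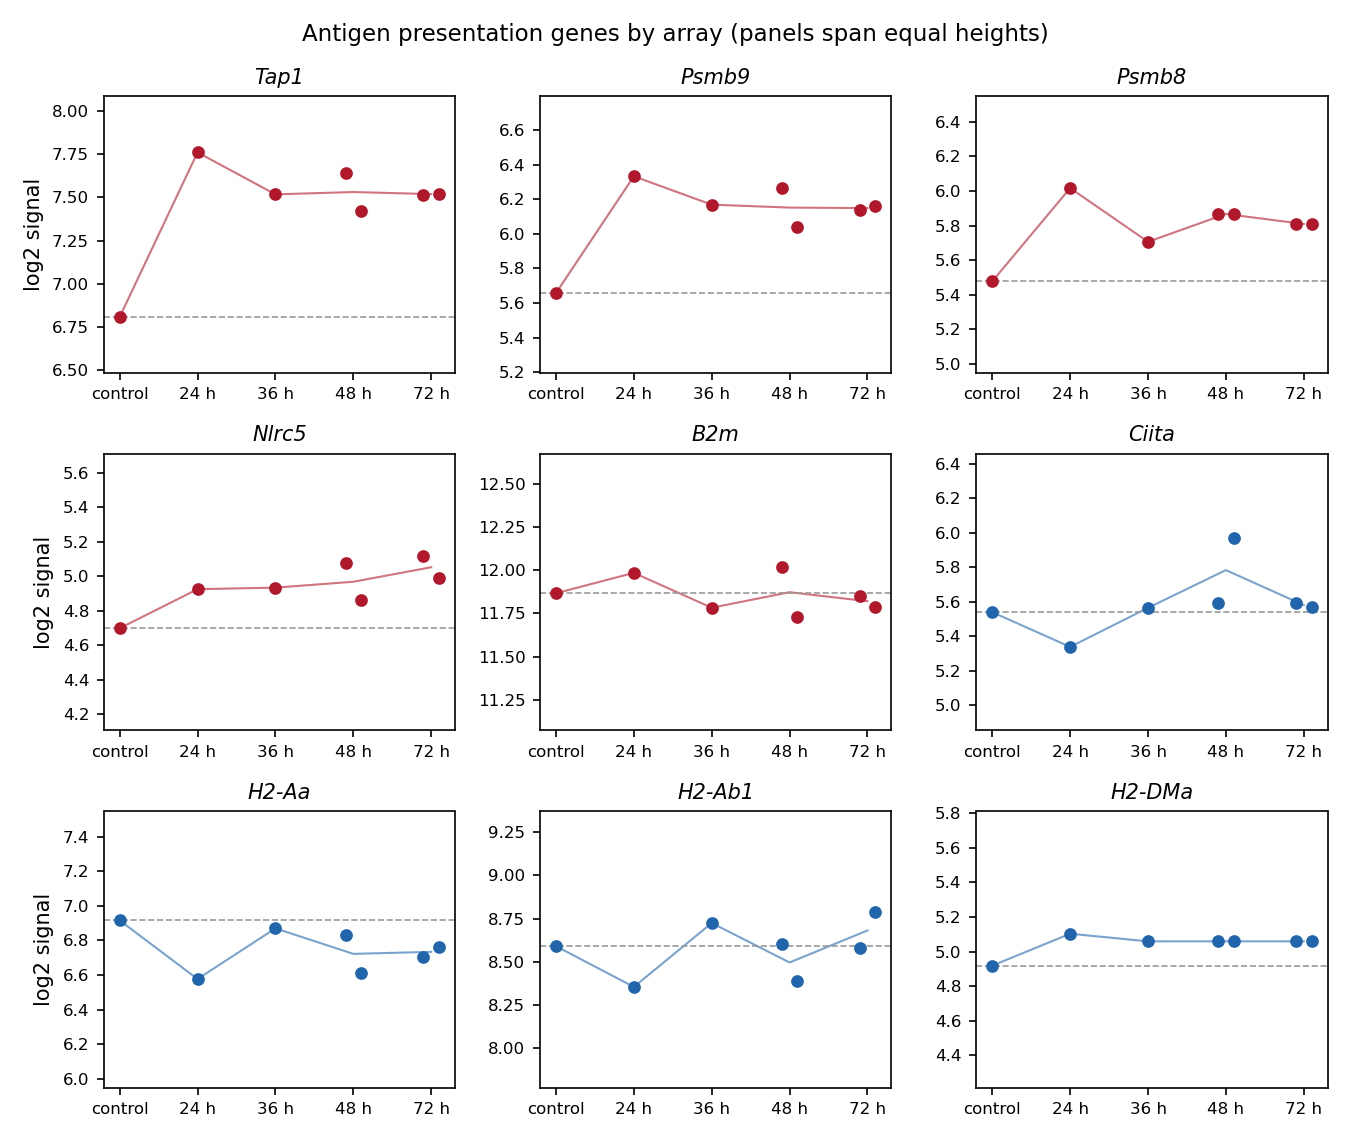
Log2 signal (vertical axis) of the 9 genes in each group (horizontal axis), 1 point per array; lines join group means, the dashed line is the control level, and red and blue mark class I and class II genes. Every panel spans the same number of log2 units. Every toxin point lies above the dashed line for Tap1, Psmb8, Psmb9, Nlrc5 and H2-DMa.

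Tap1 encodes a subunit of the peptide transporter. Its log2 signal was 6.81 on the control array, 7.76 on the 24 h array, 7.52 on the 36 h array, 7.64 and 7.42 for the 48 h pair, and 7.52 and 7.52 for the 72 h pair. All 6 toxin values exceeded the control value by at least 0.61. The log2 difference from the control was 0.72 ± 0.12 at 48 h (SE, n = 2 against 1; 1.65-fold; limma adjusted p = 0.138) and 0.71 ± 0.12 at 72 h (n = 2 against 1; 1.64-fold; limma adjusted p = 0.161). The single control array enters each of these differences, and its own spread is not measured. Between the toxin pairs the level differed by -0.01 (72 h minus 48 h, 95% interval -0.31 to 0.28).

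Psmb9 encodes the immunoproteasome subunit that takes the place of Psmb6. Log2 signal was 5.66 on the control array, 6.33 on the 24 h array, 6.17 on the 36 h array, 6.26 and 6.04 for the 48 h pair, and 6.14 and 6.16 for the 72 h pair. The lowest toxin value, 6.04, lay above the control. The log2 difference was 0.495 ± 0.12 at 48 h (SE, 1.41-fold, limma adjusted p = 0.19) and 0.49 ± 0.12 at 72 h (1.41-fold, limma adjusted p = 0.21).

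Psmb8 encodes the immunoproteasome subunit that takes the place of Psmb5. Log2 signals were 5.48 on the control array, 6.02 on the 24 h array, 5.71 on the 36 h array, 5.87 and 5.87 for the 48 h pair, and 5.81 and 5.81 for the 72 h pair. The toxin arrays lay above the control, with the 24 h array at the top and the 36 h array at the bottom of their range. Against the control the log2 difference was 0.39 ± 0.05 at 48 h (SE, 1.31-fold, limma adjusted p = 0.121) and 0.33 ± 0.05 at 72 h (1.26-fold, limma adjusted p = 0.153). Psmb8 was equal on both 72 h arrays at the deposited precision, as were 10.7% of all genes, so that its own spread there reads as 0. Its 48 h pair had an SD of only 0.002, so its SE of 0.047 rests on the spread that limma borrows from other genes.

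Tap1, Psmb9 and Psmb8 are neighbours on chromosome 17, in the gene order H2-DMa, H2-DMb2, H2-DMb1, Psmb9, Tap1, Psmb8, Tap2, H2-Ob, H2-Ab1, H2-Aa, H2-Eb1. Tap1 and Psmb9 are read in opposite directions from starts 225 bases apart. The whole stretch between them (GRCm38.p6, chr17:34187331-34187555, plus strand) is shown because both genes were higher on every toxin array. Sequences are from RefSeq, 5′ to 3′, and capitals mark matches on either strand to 3 short motifs: CCAAT (the Y box), AGCAAC (the core of the X box, bound by RFX proteins) and GAAANNGAA (interferon-stimulated element).
Tap1 and Psmb9: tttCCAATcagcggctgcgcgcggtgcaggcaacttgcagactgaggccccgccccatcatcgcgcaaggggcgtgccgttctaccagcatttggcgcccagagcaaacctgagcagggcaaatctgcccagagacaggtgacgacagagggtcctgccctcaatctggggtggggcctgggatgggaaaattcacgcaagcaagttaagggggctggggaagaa
It held 1 CCAAT match, 8 bases before the Psmb9 start, and no match to the other letters. Of 32851 RefSeq promoter windows of 250 bases, 33.8% held CCAAT, 12.2% AGCAAC and 7.13% GAAANNGAA. Matches are a description of letters, and of the 9 measured genes 6 had an entry in this table.

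Nlrc5 encodes the transactivator of class I genes. The signal (log2) was 4.70 on the control array, 4.92 on the 24 h array, 4.93 on the 36 h array, 5.07 and 4.86 for the 48 h pair, and 5.12 and 4.99 for the 72 h pair. Each toxin value exceeded the control, by 0.16 to 0.42. Its log2 difference came to 0.27 ± 0.13 at 48 h (SE, limma adjusted p = 0.402) and 0.35 ± 0.13 at 72 h (limma adjusted p = 0.323), with 95% intervals of -0.14 to 0.67 and -0.05 to 0.76. Its mean signal lay below the median of all genes.

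B2m encodes beta-2 microglobulin, the light chain that every classical class I molecule needs. Signal on the log2 scale was 11.87 on the control array, 11.98 on the 24 h array, 11.78 on the 36 h array, 12.02 and 11.73 for the 48 h pair, and 11.85 and 11.79 for the 72 h pair. The control value lay inside the range of the toxin arrays. The fitted log2 difference was 0.01 at 48 h (95% interval -0.47 to 0.48) and -0.05 at 72 h (-0.52 to 0.43). The stretch before its start (chr2:122147537-122147686, plus strand) is shown for contrast with that of Tap1 and Psmb9.
B2m: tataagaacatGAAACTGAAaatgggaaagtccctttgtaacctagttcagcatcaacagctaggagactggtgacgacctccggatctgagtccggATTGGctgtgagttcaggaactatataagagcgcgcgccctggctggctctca
It held GAAACTGAA 139 bases and ATTGG, the reverse complement of CCAAT, 53 bases before the start.

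**Figure D2:**
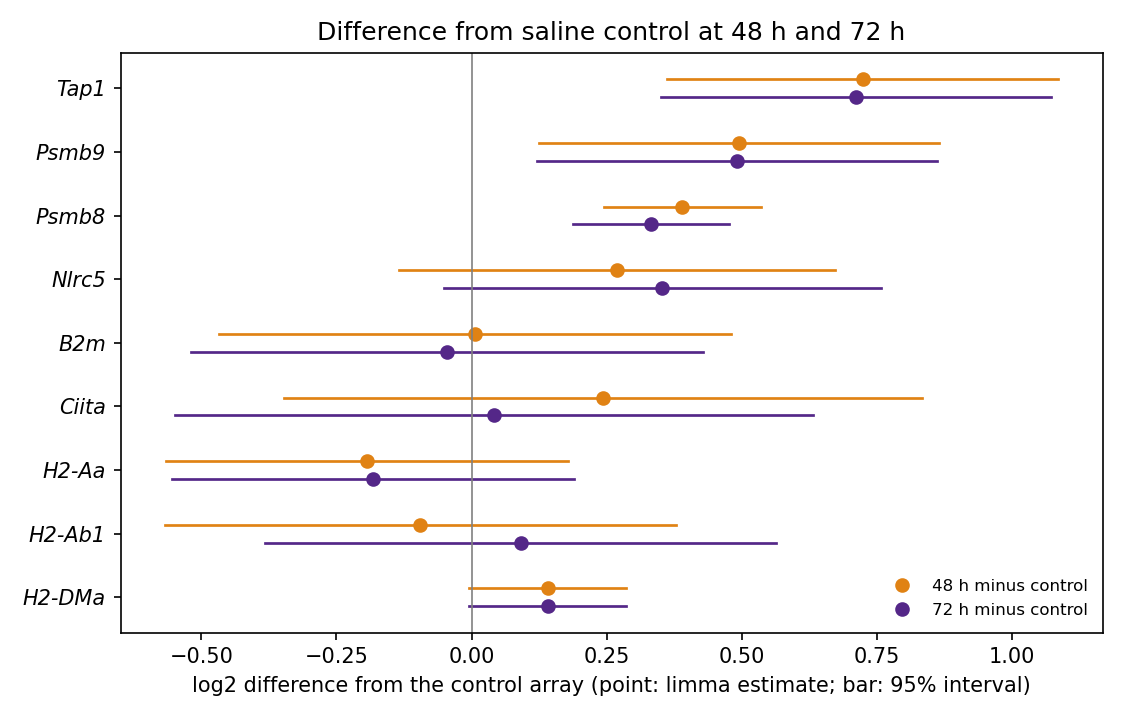
Log2 difference from the control array (horizontal axis) for each of the 9 genes at 48 h (orange) and 72 h (purple); points are limma estimates and bars are 95% intervals, unadjusted for the number of genes. The bars of Tap1, Psmb9 and Psmb8 lie above 0 at both times, and those of the other 6 genes include 0.

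The class II genes lay on both sides of the control. Ciita, which switches on class II genes, had log2 signals of 5.54 on the control array, 5.34 on the 24 h array, 5.57 on the 36 h array, 5.60 and 5.97 for the 48 h pair, and 5.60 and 5.57 for the 72 h pair. One 48 h array stood 0.43 above the control, and the other toxin arrays lay between 0.20 below it and 0.06 above it. The log2 difference was 0.24 at 48 h (95% interval -0.35 to 0.83, limma adjusted p = 0.619) and 0.04 at 72 h (-0.55 to 0.63, adjusted p = 0.979).

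H2-Aa encodes the alpha chain of the I-A molecule. Its log2 signal was 6.92 on the control array, 6.58 on the 24 h array, 6.87 on the 36 h array, 6.83 and 6.61 for the 48 h pair, and 6.71 and 6.76 for the 72 h pair. All toxin values lay below the control, by 0.05 at 36 h and by 0.34 at 24 h, an order that did not hold when the arrays were quantile-normalised again, where 0 of 9 genes lay below the control on all 6. Against the control the log2 difference was -0.19 at 48 h (95% interval -0.57 to 0.18, limma adjusted p = 0.512) and -0.18 at 72 h (-0.55 to 0.19, adjusted p = 0.559).

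H2-Ab1 encodes the beta chain that pairs with H2-Aa. Across arrays its log2 signal was 8.59 on the control array, 8.35 on the 24 h array, 8.72 on the 36 h array, 8.60 and 8.39 for the 48 h pair, and 8.58 and 8.79 for the 72 h pair. The control value lay inside the toxin range. Its log2 difference came to -0.095 at 48 h (95% interval -0.57 to 0.38) and 0.09 at 72 h (-0.38 to 0.56).

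H2-DMa encodes the alpha chain of H2-M, which loads peptide onto class II molecules. Its log2 signals were 4.92 on the control array, 5.10 at 24 h and 5.06 on each of the other 5 toxin arrays. The fitted log2 difference was 0.14 ± 0.05 at both 48 h and 72 h (SE, limma adjusted p = 0.262 and 0.286). Equal values on 5 arrays at a signal below the median of all genes leave the spread of this gene unmeasured.

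The stretches before the starts of H2-Aa (chr17:34287824-34287943, minus strand) and of H2-Eb1, the I-E beta chain (chr17:34305747-34305866, plus strand), are shown because H2-Aa lay below the control on all 6 toxin arrays while H2-Eb1 lay above it on 5.
H2-Aa: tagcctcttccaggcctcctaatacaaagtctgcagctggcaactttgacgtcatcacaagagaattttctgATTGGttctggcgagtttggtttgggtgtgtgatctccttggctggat
H2-Eb1: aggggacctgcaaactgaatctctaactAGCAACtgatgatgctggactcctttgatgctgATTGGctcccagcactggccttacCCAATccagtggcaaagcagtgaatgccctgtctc
H2-Aa held 1 match, ATTGG 48 bases before the start. H2-Eb1 held 3: AGCAAC 92, ATTGG 59 and CCAAT 35 bases before the start. Exact letters alone were marked. The H2-Aa stretch also holds ggcaac, 1 letter from AGCAAC, as does that of Tap1 and Psmb9. An unmarked stretch therefore does not show that an X box is absent.

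No time trend was called among the 6 toxin arrays. The slope of Tap1 was -0.08 ± 0.06 log2 units per 24 h (SE, limma adjusted p = 0.736), that of Psmb9 -0.07 ± 0.05 (0.77) and that of Psmb8 -0.055 ± 0.055 (0.815). The class II slopes ran between -0.015 for H2-DMa and 0.11 for H2-Ab1. Unadjusted slopes passed p under 0.05 upwards in 4.22% of all genes and downwards in 4.47%, and in 0 of the 9. Between the 72 h and 48 h pairs, adjusted limma p-values of the 9 genes were 0.757 or more, and 0 of 9 passed an unadjusted p of 0.05, against 4.27% of all genes higher and 2.80% lower.

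The 24 h and 36 h groups had 1 array each, and no test was made. At 24 h Tap1 stood 0.95 above the control (1.94-fold), Psmb9 0.68 (1.60-fold) and Psmb8 0.54 (1.45-fold), while H2-Aa stood 0.34, H2-Ab1 0.24 and Ciita 0.20 below it. At 36 h the differences were 0.71 for Tap1, 0.51 for Psmb9 and 0.23 for Psmb8. None of the 9 reached 2-fold at either time as deposited, although Tap1 at 24 h was 1.02 (log2) above the control, past 2-fold, after quantile normalisation again. Of all genes, 1.20% reached it upwards and 1.67% downwards at 24 h, and 0.933% and 1.61% at 36 h.

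Of 14 other measured genes of the class I pathway, 2 lay above the control on all 6 toxin arrays (20.2% of all genes) and 1 below (22.6%), and 1 was higher at an unadjusted p under 0.05 at each of 48 h and 72 h. The 2 above were chosen for mention after their values were seen. Tap2, the partner of Tap1, had log2 signals of 5.03 on the control array, 5.60 on the 24 h array, 5.48 on the 36 h array, 5.67 and 5.48 for the 48 h pair, and 5.41 and 5.48 for the 72 h pair. It differed by 0.55 ± 0.11 at 48 h (SE, limma adjusted p = 0.159) and 0.42 ± 0.11 at 72 h (0.219). Psmb10, the immunoproteasome subunit that takes the place of Psmb7, stood 0.11 to 0.40 above the control on the toxin arrays (48 h difference 0.19 ± 0.09, adjusted p = 0.382).

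The class I heavy chain H2-K1 had log2 signals of 8.71 on the control array, 8.67 on the 24 h array, 9.24 on the 36 h array, 9.34 and 8.77 for the 48 h pair, and 9.41 and 9.29 for the 72 h pair. It was low on the control, 24 h and one of the 48 h arrays, and the log2 difference was 0.34 ± 0.29 at 48 h (SE, limma adjusted p = 0.654) and 0.64 ± 0.29 at 72 h (0.399). H2-T23, H2-Q4 and H2-M3, class I genes with a more restricted role, ran from -0.26 to 0.57, from -0.16 to 0.62 and from -0.16 to 0.28 around the control. Probes for class I heavy chains can take up signal from their near-identical relatives, so that these values are uncertain.

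**Figure D3:**
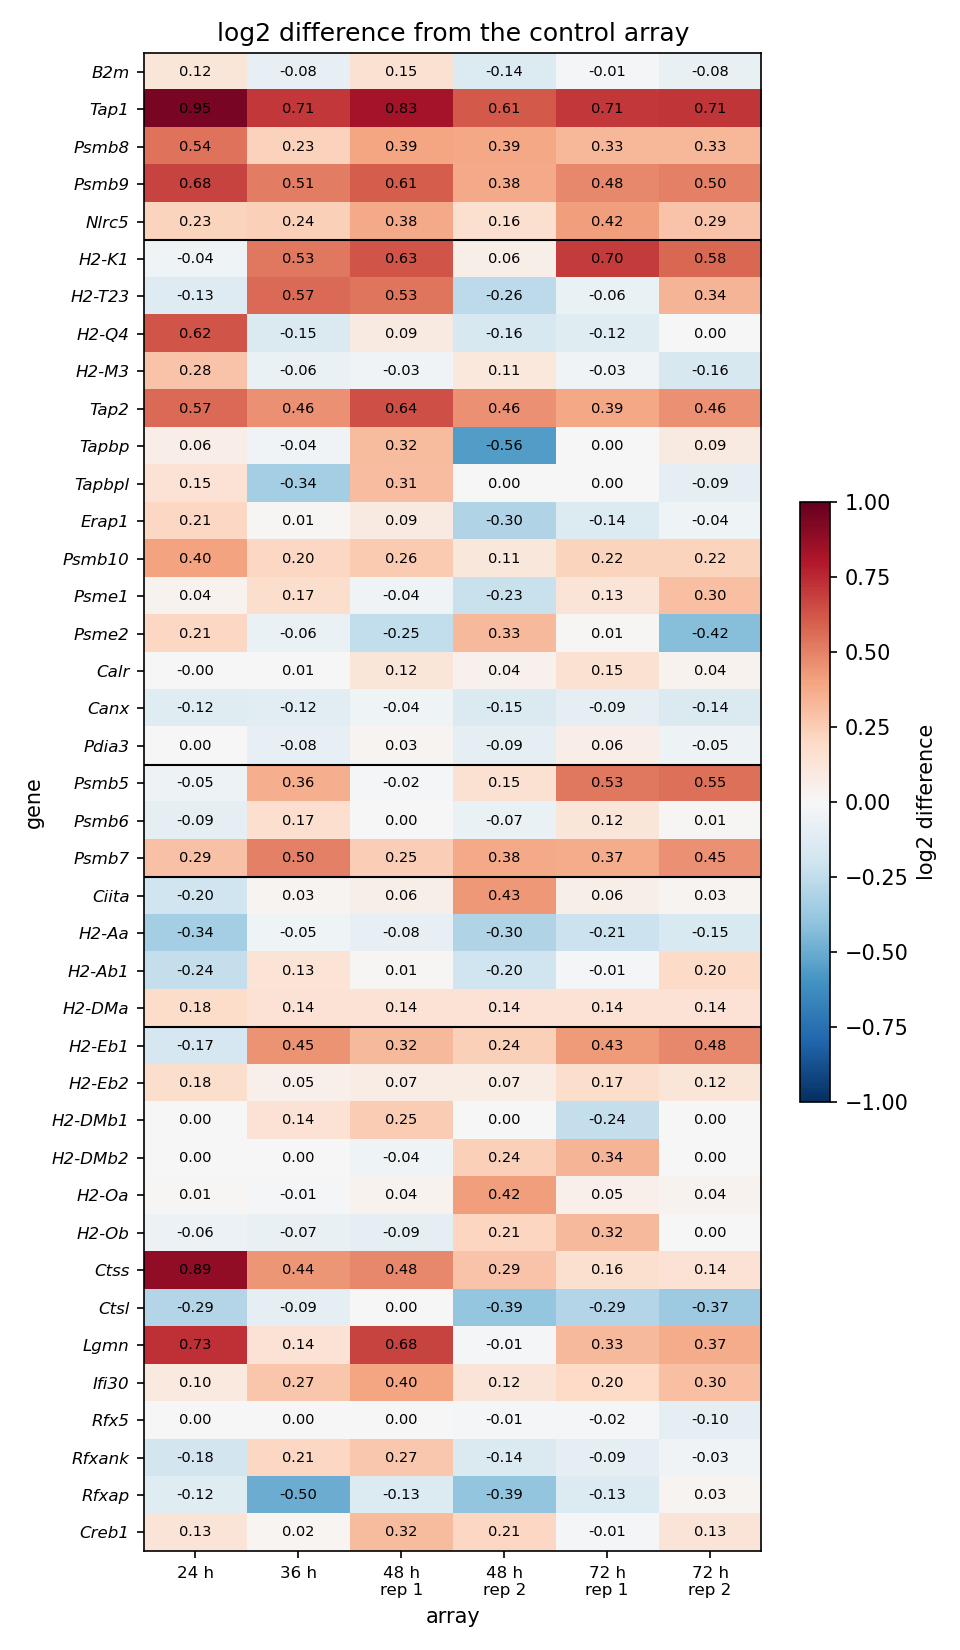
Log2 difference from the control array on each of the 6 toxin arrays (columns) for, from top to bottom between the black lines, the 5 class I genes described, 14 other class I pathway genes, the constitutive subunits Psmb5, Psmb6 and Psmb7, the 4 class II genes and 14 other class II pathway genes (rows). Red is higher and blue lower than the control; The rows above the control in every column are Tap1, Psmb8, Psmb9, Nlrc5, Tap2, Psmb10, Psmb7, H2-DMa, H2-Eb2, Ctss and Ifi30.

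Psmb5, Psmb6 and Psmb7 are the constitutive proteasome subunits that Psmb8, Psmb9 and Psmb10 replace. Psmb5 stood between -0.05 and 0.15 of the control at 24 h and 48 h, at 0.36 at 36 h and at 0.53 and 0.55 at 72 h. Psmb6 stayed between -0.09 and 0.17. Psmb7 was 0.25 to 0.50 above the control on all 6 toxin arrays, and Psma1, a structural subunit, ran from -0.18 to 0.31. Of 13 measured constitutive subunits, 8 lay above the control on all 6 toxin arrays (20.2% of all genes) and 0 below (22.6%). At an unadjusted limma p under 0.05, 3 were higher at 48 h (8.16% of all genes) and 5 at 72 h (7.93%).

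Among 14 other class II pathway genes, 3 lay above the control on all 6 toxin arrays (20.2% of all genes) and 0 below (22.6%), with list medians of 0.00 to 0.16. H2-Eb1 had log2 signals of 6.03 on the control array, 5.86 on the 24 h array, 6.48 on the 36 h array, 6.35 and 6.26 for the 48 h pair, and 6.45 and 6.51 for the 72 h pair. It differed by 0.28 ± 0.07 at 48 h (SE, limma adjusted p = 0.192) and 0.45 ± 0.07 at 72 h (0.153), while the 24 h array lay below the control. H2-Eb2 stood 0.05 to 0.18 above the control, and H2-DMb1 and H2-DMb2, the beta chains of H2-M, equalled the control value on 3 of 6 arrays each at log2 signals of 3.17 to 3.82.

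Of 12 type I interferon response genes, 9 lay above the control on all 6 toxin arrays (20.2% of all genes), 8 were at least 2-fold higher at 24 h (1.20%) and 6 at 36 h (0.933%). Ifit1, an interferon-induced RNA-binding protein, had log2 signals of 4.66 on the control array, 7.42 on the 24 h array, 6.93 on the 36 h array, 7.16 and 5.26 for the 48 h pair, and 7.34 and 7.55 for the 72 h pair. Isg15, an interferon-induced ubiquitin-like protein, stood 0.22 to 1.79 above the control and Ifit3 0.05 to 1.03, while Ifit2 stood -0.26 to 0.37 from it. Replicate 2 at 48 h was the lowest toxin array for Ifit1 and Isg15, and replicate 1 at 72 h for Ifit3. None of the 12 was called (Ifit1 at 72 h, limma adjusted p = 0.291).

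Of 16 genes of interferon gamma signalling, 6 lay above the control on all 6 toxin arrays (20.2% of all genes) and 1 below (22.6%), with list medians of 0.05 to 0.24. Ifng itself was at 3.97 to 4.06 on the toxin arrays, against 3.94 on the control array (log2). Its receptor chains Ifngr1 and Ifngr2 ran from -0.17 to 0.09 and from -0.02 to 0.27 around the control, and the kinase Jak1 from -0.03 to 0.19. The next genes were chosen after their values were seen. The GTPase Igtp stood at least 0.86 above the control on the toxin arrays, while Iigp1, another GTPase, ran from -0.89 to 0.02 and was lower on 5 of 6. The transcription factors Irf8, Irf1 and Irf9 stood 0.29 to 0.71, 0.175 to 0.50 and 0.07 to 1.05 above the control. The chemokine Cxcl10 stood 2.21 above at 24 h, 0.21 below at 36 h and 0.62 to 0.85 above at 48 h and 72 h, and Cd274, the checkpoint ligand PD-L1, differed by -0.62 to -0.31. Of 6 costimulation genes 3 lay above the control on all 6 arrays (20.2% of all genes). Cd80 ran from -0.18 to 0.18, Cd40 stood 0.01 to 0.14 above, and Icosl ran from -0.21 to 0.31. Cd86 was 0.16 above, with the same log2 signal of 4.15 on all 6 toxin arrays. That signal lay below the array medians and leaves its spread unmeasured.

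**Figure D4:**
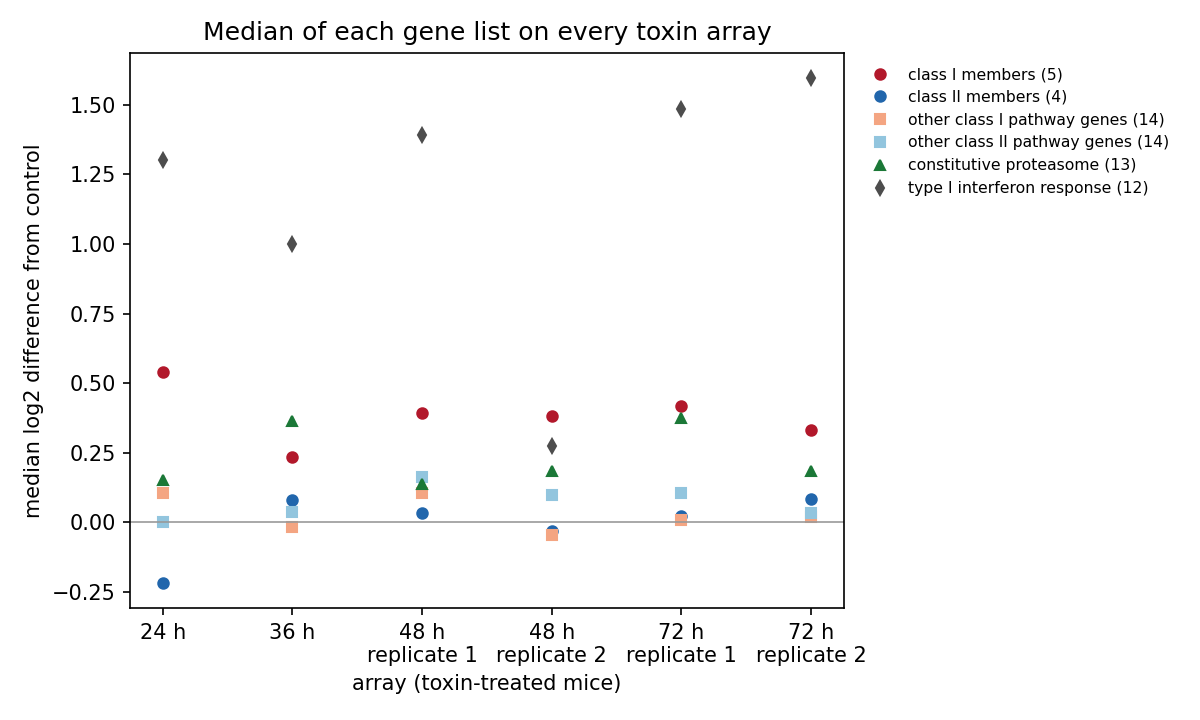
Median log2 difference from the control array (vertical axis) of each gene list on each toxin array (horizontal axis); the number of genes is in brackets. The 5 class I genes lie between 0.24 and 0.54 and the 4 class II genes between -0.22 and 0.08, while the type I interferon list lies at 0.27 on replicate 2 at 48 h and at 1.00 to 1.60 elsewhere.

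The tissue carried the markers of gastric corpus, and some of them moved with the groups. In bulk tissue, fewer cells of a type and less RNA per cell cannot be told apart. The summed linear signal of 5 parietal cell markers was 4930 to 16290 on the toxin arrays, against 17768 on the control. All 5 of 5 were lower on all 6 (22.6% of all genes). The sum of 5 epithelial markers was 6093 to 7224 on the toxin arrays, against 5555 on the control, with 5 of 5 higher on all 6 (20.2% of all genes). Dendritic cell markers summed to 267.1 to 357.3 on the toxin arrays, against 202.1 on the control, and 4 of 7 were higher on all 6 (20.2% of all genes). Among them Cd209a, chosen after its values were seen, ran from 6.81 to 7.74, against 6.20 (log2). Without Cd209a the sum of the other 6 was 136.2 to 162.1, against 128.5, an alternative added after seeing the data. Macrophage markers summed to 576.3 to 769.7, against 658.0, B cell markers to 65.2 to 76.7, against 69.4, T cell markers to 120.7 to 147.8, against 143.3, and pan-leukocyte markers to 114.4 to 133.3, against 117.4, each with the control inside the toxin range. Higher on all 6 were 0 of 9, 0 of 5, 2 of 6 and 1 of 3 of these markers (20.2% of all genes). Lower on all 6 were 1 of 9, 0 of 5, 2 of 6 and 0 of 3 (22.6%). Chief cell markers summed to 10797 to 14136, against 15918, and surface mucous cell markers to 27900 to 29686, against 27181. Of 3 chief cell markers, 2 were lower on all 6 (22.6% of all genes), Cblif and Bhlha15. The third, Pgc, ran from -0.19 to 0.09 around the control (log2). No marker was at 0, a value this scale does not reach. The part of epithelial and dendritic cell content in the differences of Tap1, Psmb8 and Psmb9 was not tested.

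The arrays also split by sex-linked genes. Xist, made from the inactive X chromosome of females, had a log2 signal of 9.17 at 24 h and 8.13 on the control array, against 2.70 to 3.27 on all 5 remaining arrays. The 24 h array against the control is a comparison within 1 pattern, of 1 array against 1 and without a test. There Tap1 stood 0.95, Psmb9 0.68 and Psmb8 0.54 above the control. The part of sex in the differences of these genes was not tested. The comparisons at 36, 48 and 72 h set the other pattern against the control, and there sex and toxin cannot be told apart. H2-K1 stood 0.53 above the control at 36 h and 0.04 below it at 24 h, and H2-Eb1 0.45 above and 0.17 below. Over all arrays at 36, 48 and 72 h, H2-K1 stood 0.06 to 0.70 above the control and H2-Eb1 0.24 to 0.48. The lowest H2-K1 value among them, 0.06, was on replicate 2 at 48 h. These arrays also differ from the 24 h array in time. Without the 24 h array, slopes over the other 5 arrays were -0.004 for Tap1 and 0.026 for Psmb8 (limma adjusted p of 0.46 or more for all 9 genes under every alternative).

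Genes with a profile like that of the class I set were sought among 1361 genes. These had a mean signal above the median of all genes and an SD of at least 0.3 over the 7 arrays. Genes of every list described above, the interferon and proteasome lists among them, were left out beforehand and could not appear. Predicted genes and immunoglobulin segments were not named. The mean profile of B2m, Tap1, Psmb8 and Psmb9 spanned 0.57 log2 units. The closest were Bcl3 (r = 0.988), a nuclear partner of NF-kappaB, Snrpd1 (0.977), a core protein of the splicing machinery, Bub1b (0.964), a spindle checkpoint kinase, Ccdc34 (0.964), Pappa2 (0.964), a protease of insulin-like growth factor binding proteins, and Nr4a3 (0.962), an orphan nuclear receptor. Bcl3 had log2 signals of 6.64 on the control array, 8.08 on the 24 h array, 7.40 on the 36 h array, 7.79 and 7.42 for the 48 h pair, and 7.54 and 7.67 for the 72 h pair. The mean profile of H2-Aa, H2-Ab1 and H2-DMa spanned only 0.21 log2 units, and the closest genes to it were Chp2 (r = 0.917), Mfsd2a (0.909), Atp2c2 (0.888), Elovl6 (0.863), Postn (0.858) and Ppp1r3b (0.848). All these correlations run over the same 7 arrays, were picked as the highest among many genes and carry no p.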

How the data were processed

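Total RNA of gastric corpus was labelled as biotinylated cDNA and read on 1 single-channel Affymetrix array per sample. The table the authors deposited gives log2 signal on 7 arrays for 41345 probe sets, from RMA in Partek per the submitters' processing notes, with versions not given in the sources used here. These values were used as deposited (array medians 4.56 to 4.71). Arrays have no read depth, and their number limits the precision.

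Probe sets were named from the platform annotation: 23521 had 1 gene, 1814 several and 16010 none. The brightest single-gene probe set stood for each of 22180 genes (1082 had several), and 23328 probe sets matched the RefSeq table of GRCm38.p6 by Entrez identifier, used for gene order and promoter sequence. One further motif searched, and the promoter shown for it, are not reported here. The array's own build is not given in the sources used here.

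Tests used limma 3.58.1 (R 4.3.3; group means on all 7 arrays, 2 residual and 1.15 prior degrees of freedom; slopes over the 6 toxin arrays, 4 and 1.83), two-sided, with Benjamini-Hochberg adjustment over all genes and calls at an adjusted p under 0.05. The lone control is assumed to vary like the 48 h and 72 h pairs. Both arrays of a pair held equal values in 2485 genes (11.2%) at 48 h and 2367 (10.7%) at 72 h. Scripts were checked on simulated data. The genes described and the lists were chosen with earlier results of these data known. Named genes are the 10 genes, the first 4 measured genes of each of 6 pathway lists in their written order, and the 6 genes most alike in profile; exceptions are stated. The labels do not say whether replicate numbers pair the arrays, and no pairing was used in the main fits. Within-pair differences at 48 h and 72 h correlated at -0.13 across 22180 genes. Genes are not independent replicates, and crossed numbers could also give a negative value, so this correlation cannot settle the pairing. The alternatives were other scalings, brighter genes only, the mean of probe sets, a trended prior, a replicate block and leaving out single arrays.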

Additional observations from a re-analysis of the deposited data

How the results depend on the processing

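No member was called under any alternative, and the smallest adjusted limma p was 0.0714 at 48 h, 0.101 at 72 h, 0.304 for 72 h minus 48 h and 0.46 for the slope. Over 97 gene-wise alternatives each, the sign turned in 4 at 48 h, 1 at 72 h, 10 for 72 h minus 48 h and 3 for the slope; for 72 h minus 48 h another 10 were 0 in either value, as were 2 for the slope. Tap1 ranged from 0.61 to 0.83 at 48 h and from 0.71 to 0.76 at 72 h, Psmb9 from 0.38 to 0.61 and 0.48 to 0.51, and Psmb8 from 0.38 to 0.41 and 0.33 to 0.34. After quantile normalisation again, H2-Ab1 at 48 h was 0.022, H2-Aa for 72 h minus 48 h was -0.041, the median of the 9 genes was -0.041 for 72 h minus 48 h and 0.189 at 36 h, and 0 genes lay below the control on all 6 arrays. With array medians subtracted, B2m at 48 h was -0.004, and for 72 h minus 48 h Psmb9 was 0.011, Tap1 0.001 and the median 0.011. With brighter genes only, which drops H2-DMa and Nlrc5, the median was 0.091 at 72 h and -0.051 for the slope. Leaving out 1 array at a time, the median ran from 0.152 to 0.243 at 48 h, 0.141 to 0.195 at 72 h and -0.060 to 0.097 for 72 h minus 48 h; H2-Ab1 ran from -0.201 to 0.012 at 48 h and -0.013 to 0.195 at 72 h, and B2m from -0.140 to 0.152 at 48 h. For 72 h minus 48 h, H2-Aa ran from -0.098 to 0.121, B2m from -0.198 to 0.094, Tap1 from -0.122 to 0.097, Psmb9 from -0.115 to 0.109 and Nlrc5 from -0.023 to 0.191. Slopes ran from -0.060 to 0.127 for Ciita, -0.057 to 0.069 for H2-Aa and -0.097 to 0.026 for Psmb8, with the turned sign in each without the 24 h array. The cause of these turns was not tested. Without the 24 h array 6 of 9 genes lay above the control on the other 5 toxin arrays (22.1% of all genes). Over all 22180 genes, 12 were called at 48 h and 6 at 72 h after quantile normalisation again, and 77 and 13 with array medians subtracted, against 0 as deposited, where 4375 and 3978 had an unadjusted p under 0.05. The replicate block left 0 genes called and the median of the 9 genes at 0.243 at 48 h, with 3308 genes at an unadjusted p under 0.05. The numbers crossed, an alternative chosen after seeing the data, also left 0 called (3627 unadjusted).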
